A study of Mus musculus with 2 samples.

Results

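DNA replication, mitosis and E2F genes were described in MeXis null and WT mouse macrophages from the peritoneal cavity, the space around the abdominal organs. MeXis is a long noncoding RNA gene. The members were the 57 named genes of the DNA replication machinery, of mitosis and of the E2F network, read by the 108 array probes that carry their names, out of 37074 gene names and 56605 probes on the array. They were split by role into 24 mitosis genes with 44 probes, 21 replication genes with 42 probes, 5 G1 cyclin and Cdk2 genes with 7 probes, and 7 transcription factor genes with 15 probes. The MeXis null group was 1 Agilent array of 1 colour, hybridised with Cy3-labelled total RNA pooled from 3 samples of MeXis null macrophages. The WT group was 1 such array of RNA pooled from 3 samples of WT macrophages. Both labels give the strain as bl6 and DMEM with 10% FBS as the culture medium, and no age, sex, ligand or other treatment is given in the sources used here. How the cells were drawn from the peritoneum, how long they were cultured and how the MeXis allele was made are likewise not given there. With 1 pooled array per genotype there was no replicate array, so no difference below has a test or a p-value, and each one compares these arrays.

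A cell that divides first licenses its replication origins by loading the MCM helicase, with Cdc6 and Cdt1 as loaders, then fires them with Cdc45 and the GINS complex and copies its DNA. E2F factors bind promoters of many of these replication genes and are held back in resting cells by the retinoblastoma proteins. Genes needed later, for chromosome condensation, the spindle and cytokinesis, are controlled largely through a separate promoter element, the cell cycle genes homology region (CHR), to which B-Myb (Mybl2) and Foxm1 are brought with the MuvB complex. Most macrophages of an unstimulated peritoneum are resting, although resident macrophages can divide in place.

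Every difference below is the log2 of the processed signal on the MeXis null array minus that on the WT array, after each array was scaled to its 75th percentile. A gene was read from its brightest probe. It was called higher or lower where the difference was at least 2-fold and exceeded the 95% limit of the error that the scanner software gives for it. Of the 59305 spots that are not controls, the software marked 26257 (44.3%) on the MeXis null array and 28463 (48.0%) on the WT array as well above background. Among 285 probes printed at least 5 times, the difference between the arrays varied from spot to spot with a median SD of 0.47, so that a single spot within 0.91, or 1.88-fold, lay inside this spread. That spread follows the position on the array. After the median difference of the 100 nearest spots was subtracted from each spot (the local surface correction), the SD was 0.33 and the limit 0.64, or 1.56-fold, and corrected values stand beside the scaled ones for every list and for the genes whose call they change. The macrophage marker Cd68 had a signal of 196155 on the MeXis null array and 115942 on the WT array, and 9 of 10 macrophage markers were above background, all but Cd163. The only probe of the MeXis gene, named AI427809 on the array, read 8.44 on the MeXis null array and 12.3 on the WT array. It was above background on neither, so the labels have no check from it. In pooled RNA, fewer cells of a type and less RNA per cell cannot be told apart.

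RefSeq promoters (build GRCm38.p6, 250 bases before to 50 bases after the annotated start) were found for 43 of the 57 members. They were searched on both strands for an E2F site (TTTCCCGC, TTTGGCGC, TTTCGCGC or TTTGCCGC), for the CHR (TTTGAA or TTCGAA) and for a CCAAT box (CCAAT). Different motifs overlapped 1 time in the members' promoters. The CHR stood in the promoters of 15 of 20 mitosis genes (75%) and 3 of 16 replication genes (18.8%). It was in 21.7% of all 27025 genes with a promoter, and in 19.2% of the 32851 promoters. The E2F site was in 1 of 20 mitosis genes (5.0%) and 7 of 16 replication genes (43.8%), against 2.61% of all genes and 2.26% of promoters. The CCAAT box stood in 17 of 20 mitosis genes and 12 of 16 replication genes, and in 41.1% of all genes. A match describes letters only and is not evidence of binding. The mitosis genes printed carry the CHR and span the ends of the mitosis results, Top2a, Plk1 and Ube2c at the upper end and Cdk1 at the lower. They are given on the gene's strand, 5′ to 3′, with CHR and E2F matches in capitals. Their positions are chr11:99024140-99024439 (minus strand) for Top2a, chr7:122159185-122159484 (plus strand) for Plk1, chr2:164769679-164769978 (plus strand) for Ube2c and chr10:69352863-69353162 (minus strand) for Cdk1.
Top2a: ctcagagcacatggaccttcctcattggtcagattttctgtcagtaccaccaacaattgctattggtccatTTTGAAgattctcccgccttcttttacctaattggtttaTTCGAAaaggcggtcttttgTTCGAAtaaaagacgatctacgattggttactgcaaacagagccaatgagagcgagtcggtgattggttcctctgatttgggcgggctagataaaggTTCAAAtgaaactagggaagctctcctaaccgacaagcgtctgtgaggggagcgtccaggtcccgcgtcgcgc
Plk1: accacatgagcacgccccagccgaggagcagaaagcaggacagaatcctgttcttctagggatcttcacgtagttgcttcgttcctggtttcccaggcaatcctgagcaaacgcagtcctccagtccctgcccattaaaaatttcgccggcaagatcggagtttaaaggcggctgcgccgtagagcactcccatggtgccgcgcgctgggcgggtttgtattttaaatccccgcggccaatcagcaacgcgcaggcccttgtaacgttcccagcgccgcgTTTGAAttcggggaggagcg
Ube2c: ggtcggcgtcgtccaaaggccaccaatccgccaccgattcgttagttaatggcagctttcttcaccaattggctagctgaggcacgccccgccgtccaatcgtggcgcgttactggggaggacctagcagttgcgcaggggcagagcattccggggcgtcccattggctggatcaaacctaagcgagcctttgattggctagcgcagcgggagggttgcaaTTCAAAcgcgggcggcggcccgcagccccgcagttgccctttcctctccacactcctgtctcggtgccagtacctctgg
Cdk1: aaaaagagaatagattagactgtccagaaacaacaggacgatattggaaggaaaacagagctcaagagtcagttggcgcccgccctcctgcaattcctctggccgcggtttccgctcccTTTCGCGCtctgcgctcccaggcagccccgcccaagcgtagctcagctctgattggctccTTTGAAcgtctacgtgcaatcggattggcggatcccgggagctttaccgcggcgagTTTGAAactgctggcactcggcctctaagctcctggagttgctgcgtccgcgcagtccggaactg

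Top2a holds 4 CHR matches, Plk1 and Ube2c 1 each, and Cdk1 holds 2 together with the only E2F site among the mitosis genes. Of the 7 replication genes with an E2F site (Mcm3, Mcm5, Mcm6, Mcm7, Cdc6, Cdt1 and Pola1), those printed are Mcm5 and Cdt1, which had the highest and the lowest difference, and Mcm6, which has the most matches. They lie at chr8:75109259-75109558 (plus strand) for Mcm5, chr8:122567765-122568064 (plus strand) for Cdt1 and chr1:128359656-128359955 (minus strand) for Mcm6. The E2F matches are in capitals.
Mcm5: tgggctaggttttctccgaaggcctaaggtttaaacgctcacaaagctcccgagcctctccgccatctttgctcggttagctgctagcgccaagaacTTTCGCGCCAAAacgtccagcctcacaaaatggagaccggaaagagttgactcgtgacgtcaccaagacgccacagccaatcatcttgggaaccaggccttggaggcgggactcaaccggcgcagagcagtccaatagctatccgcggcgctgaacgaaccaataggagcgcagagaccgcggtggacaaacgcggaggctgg
Cdt1: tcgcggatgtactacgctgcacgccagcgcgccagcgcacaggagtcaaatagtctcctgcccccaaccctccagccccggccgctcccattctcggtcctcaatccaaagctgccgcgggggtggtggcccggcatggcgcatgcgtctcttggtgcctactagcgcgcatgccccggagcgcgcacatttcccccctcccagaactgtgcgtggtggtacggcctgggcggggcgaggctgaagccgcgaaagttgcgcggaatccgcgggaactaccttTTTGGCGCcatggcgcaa
Mcm6: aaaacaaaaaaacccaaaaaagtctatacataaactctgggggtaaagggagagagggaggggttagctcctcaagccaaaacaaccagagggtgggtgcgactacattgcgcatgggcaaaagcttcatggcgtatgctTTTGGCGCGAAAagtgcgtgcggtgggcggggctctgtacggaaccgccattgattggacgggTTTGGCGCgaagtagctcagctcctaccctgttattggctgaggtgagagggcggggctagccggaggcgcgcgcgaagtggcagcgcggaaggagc

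Mcm5 has 2 E2F matches, which begin at -153 and -149 from the start and overlap. Cdt1 has 1, which begins 33 bases after the start, and Mcm6 has 3, of which the pair at -110 and -106 overlaps. None of these 3 promoters holds a CHR. The plot of motif positions shows the split over the promoters of the mitosis and replication members.

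**Figure D1:**
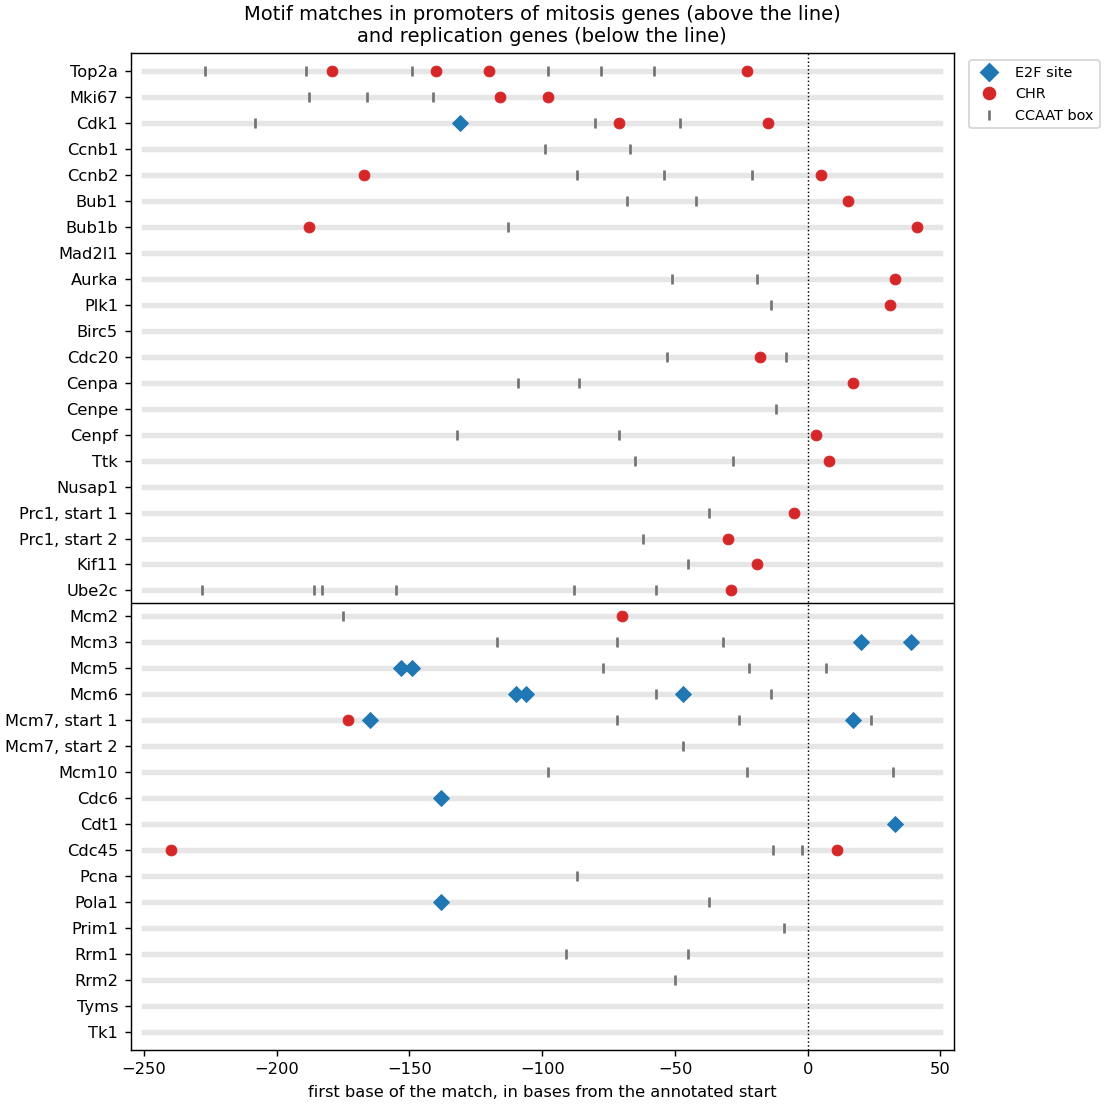
Motif matches in the promoters of mitosis genes (above the line) and replication genes (below it), by the distance in bases of the first base of the match from the annotated start; each grey bar is a promoter, blue diamonds are E2F sites, red dots CHR matches and grey ticks CCAAT boxes. CHR matches stand in 15 of 20 mitosis genes and 3 of 16 replication genes, and E2F sites in 1 and 7 of them.

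The mitosis genes as a group had a median difference above that of all genes. Of the 24, 21 were above background on at least 1 array, and their median difference was 0.85, or 1.80-fold, against 0.03 over all 17579 genes above background. Of these, 6 were at least 2-fold higher (where 9.13% of all genes were) and 0 were at least 2-fold lower, where 5.04% of all genes were. At 1.5-fold, 14 were higher and 1 was lower, where 19.1% of all genes were higher and 13.4% lower. Differences lay above 0 for 17 of the 21 and below 0 for 4. After the local surface correction the median was 0.69 and 9 of 21 were at least 2-fold higher, where 4.94% of all genes were higher and 3.91% lower. Among the 5830 genes in the range of signal that the mitosis genes on both arrays cover, the median difference was 0.08, and 9.16% were at least 2-fold higher. Summed over the 21 genes, the unscaled signal was 7671 on the MeXis null array and 4547 on the WT array.

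Of the genes of the chromosomes themselves, Top2a was past 2-fold and Mki67 was not. Top2a, the topoisomerase that untangles replicated chromosomes, had a signal of 401 on the MeXis null array and 106 on the WT array, a difference of 1.84 with a scanner error of 0.21. Its second probe above background read 164 and 29.2 in the same order, a difference of 2.42, and both probes lay beyond the spread between spots before and after the surface correction (corrected differences 1.58 and 2.09). The brighter probe lies at chr11:98854651-98854710 on mm9, the build of the array's coordinates. Its remaining 2 probes were not above background on either array. Mki67, which encodes the proliferation antigen Ki-67, had 326 on the MeXis null array and 163 on the WT array, a difference of 0.93 (corrected 0.88) that was 1.90-fold, under the 2-fold threshold and just past the 0.91 limit.

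Of the mitotic kinases and cyclins, 6 of 7 were at least 1.5-fold higher as scaled, and the other, Cdk1, was at least 1.5-fold lower. Over all genes, 19.1% were at least 1.5-fold higher and 13.4% lower. After correction Aurka (0.32) and Cdk1 (-0.46) were within 1.5-fold. Ccna2, the cyclin of S phase and early mitosis, read 297 on the MeXis null array and 95.5 on the WT array, a difference of 1.57 (corrected 1.34), and its second probe differed by 1.11 (corrected 0.88). Plk1, the kinase that drives mitotic entry and spindle assembly, read 549 on the MeXis null array and 167 on the WT array, a difference of 1.64 (corrected 1.35). Both genes were past 2-fold on every probe above background as scaled. The B-type cyclins, which partner Cdk1, were below that threshold. Ccnb1 read 272 on the MeXis null array and 140 on the WT array (difference 0.89, corrected 0.69), with 3 further probes above background on neither array. Ccnb2 read 344 on the MeXis null array and 190 on the WT array (difference 0.79), and was past 2-fold only after correction, at 1.12. The Aurora kinases of the spindle poles and the centromere, Aurka and Aurkb, differed by 0.63 and 0.95, and by 0.32 and 0.59 after correction. A dim second Aurkb probe was above background on the WT array only and differed by -1.49, inside its scanner error limit of 2.88. Cdk1, the kinase that these cyclins activate, went the other way on its only probe, with 58.4 on the MeXis null array and 92.2 on the WT array, a difference of -0.73 (corrected -0.46). That is 1.66-fold lower and inside the 0.91 spread between spots.

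Of both members that act with the anaphase-promoting complex, the ubiquitin ligase that ends mitosis, Ube2c was past 2-fold as scaled, and Cdc20 was past it only after correction. Ube2c, its ubiquitin-conjugating enzyme, read 365 on the MeXis null array and 70.5 on the WT array, a difference of 2.30 on its only probe (chr2:164598016-164598075, mm9). Ube2c lies in an area of the array where neighbouring spots differed by a median of 0.85, and its corrected difference was 1.45, or 2.73-fold. With normexp on the unprocessed signals Ube2c differed by 1.14. Cdc20, the activator of the complex, read 583 on the MeXis null array and 309 on the WT array (difference 0.85) on its brighter probe and differed by 1.06 on the other. After correction the Cdc20 probes stood at 1.13 and 1.09.

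The spindle checkpoint genes were mixed in how well they were measured. Bub1, a checkpoint kinase at the kinetochore, read 48.3 on the MeXis null array and 7.63 on the WT array, where it was not well above background. Set against the dimmest WT signal that counted as well above background, Bub1 was 3.80-fold higher in MeXis null macrophages, and its 2-fold call rests on this bound. The bound is not a strict lower limit, since a Ttk probe read 28.1 on the WT array and was not well above background. With normexp, another background correction, on the unprocessed signals Bub1 differed by only 0.63 and was not called. Bub1b and Mad2l1, which inhibit Cdc20 until chromosomes are attached, differed by 0.42 and 0.25, and the second Mad2l1 probe by -0.30, while their corrected differences were 0.51 for Bub1b and -0.10 for the brighter Mad2l1 probe. Ttk, the kinase that starts checkpoint signalling, was above background on neither array with any of its 4 probes. The dimmest signal marked well above background was higher on the MeXis null array (27.3, against 12.1 on the WT array). Marking did not follow signal alone, since on the MeXis null array Nusap1 at 49.9 was not marked and Bub1 at 48.3 was. Which array favours detection at the level of Bub1 was not tested.

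Centromere proteins stayed within 1.5-fold. Cenpa, the histone H3 variant of centromeres, read 429 on the MeXis null array and 543 on the WT array, a difference of -0.41 (corrected -0.50). The kinetochore motor Cenpe read 466 on the MeXis null array and 452 on the WT array, a difference of -0.03 after scaling, and Cenpf, which binds kinetochores and microtubules, differed by 0.57. None of the 3 passed 1.5-fold, and their median was -0.03 (corrected 0.33). Among genes of the spindle and cytokinesis, Prc1, which bundles the microtubules of the central spindle, read 330 on the MeXis null array and 104 on the WT array, a difference of 1.59 (corrected 1.33). Both further Prc1 probes that were above background were so on the MeXis null array only, where they give bounds of 2.64-fold and 2.61-fold higher. Birc5 (survivin), of the chromosomal passenger complex, read 1036 on the MeXis null array and 504 on the WT array, a difference of 0.97, which was 1.04 after correction and then past 2-fold. Kif20a, a motor of the central spindle, differed by 0.66, but by 0.06 after correction. Tpx2, which targets Aurka to the spindle, read 447 on the MeXis null array and 457 on the WT array, a difference of -0.10. Nusap1 and the spindle motor Kif11 were above background on neither array.

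**Figure D2:**
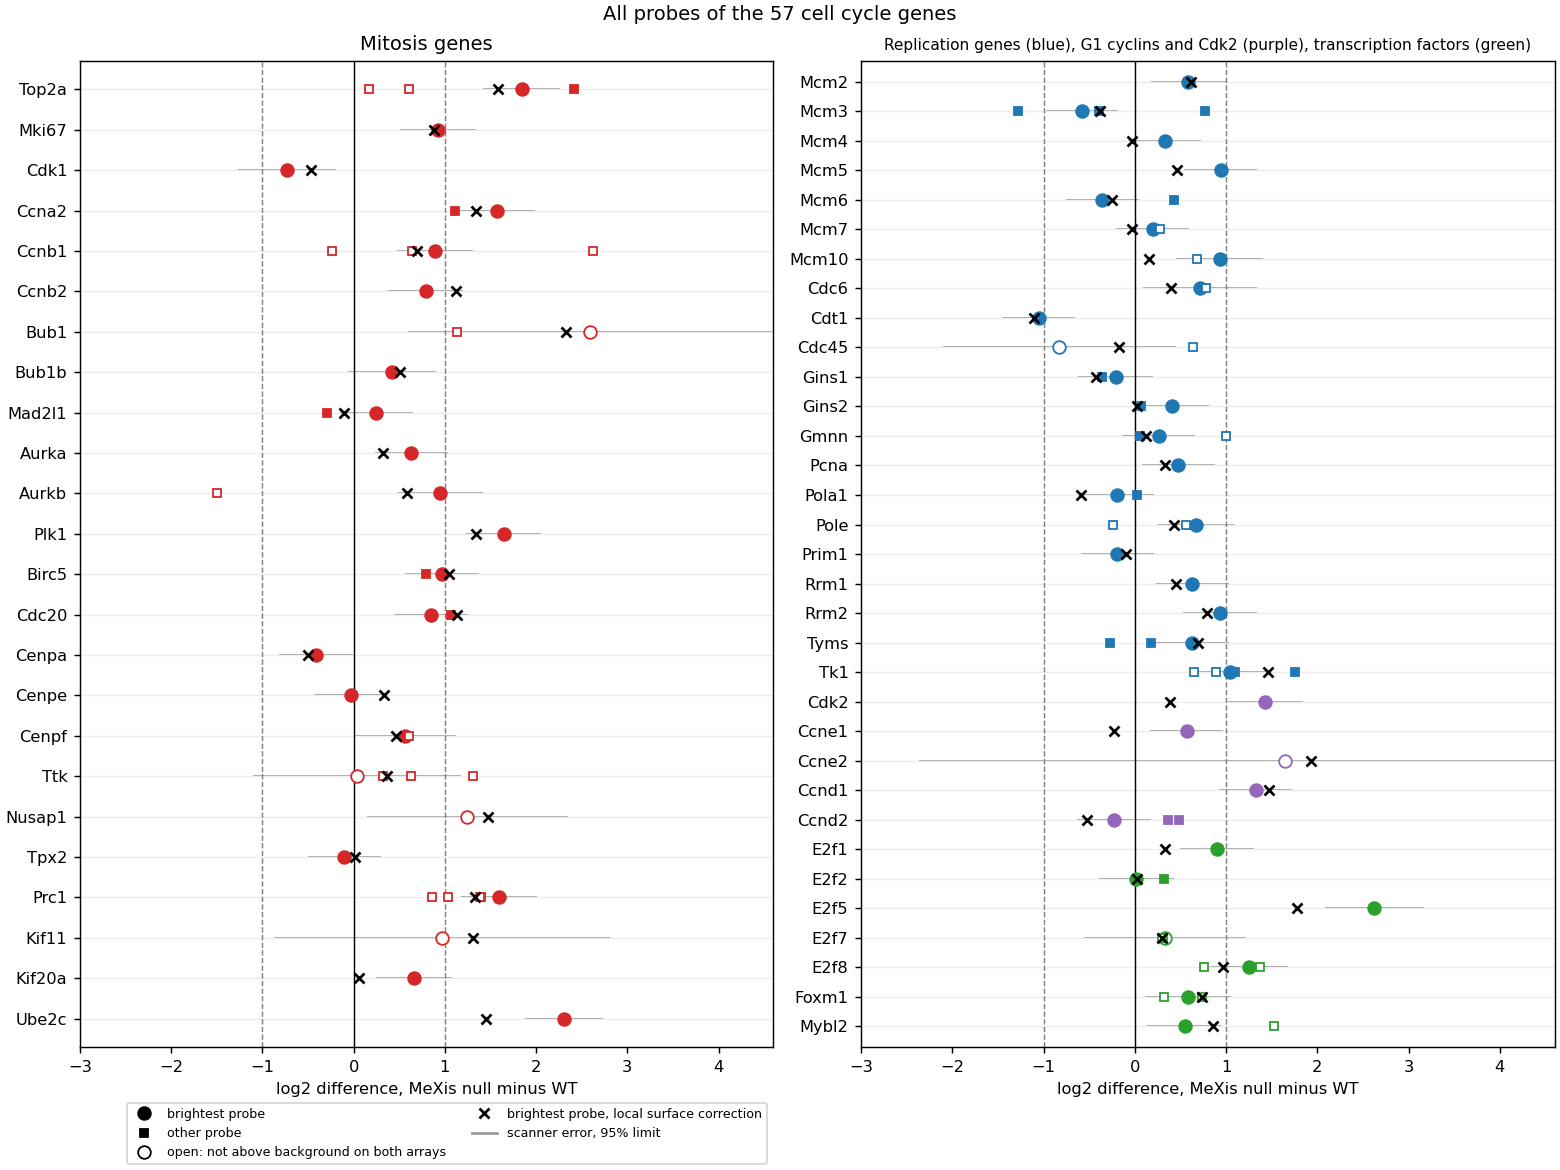
Log2 difference, MeXis null minus WT, of every probe of the 57 genes; large dots are the brightest probe of a gene with the 95% limit of its scanner error, squares its other probes, open symbols probes not above background on both arrays, and crosses the brightest probe after the local surface correction, with dashed lines at 2-fold. By their brightest probe most mitosis genes lie right of 0, with Cdk1, Cenpa, Tpx2 and Cenpe to its left. The probes of Mcm3 run from -1.28 to 0.77.

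The median shift of the replication genes was smaller than that of the mitosis genes. All 21 were above background on at least 1 array, with a median difference of 0.41, or 1.33-fold, which was 0.13 after the local surface correction. Of the 21, 1 was at least 2-fold higher, a share no larger than the 9.13% of all genes, and 1 was at least 2-fold lower, where 5.04% of all genes were. After correction 1 was higher and 1 lower too, where 4.94% and 3.91% of all genes were. At 1.5-fold, 9 were higher and 1 was lower, where 19.1% of all genes were higher and 13.4% lower. After correction 4 were higher and 2 lower at 1.5-fold, where 11.8% of all genes were higher and 12.8% lower. The median of the mitosis genes exceeded that of the replication genes by 0.44, and by 0.57 after the surface correction. Over the alternative settings that gap lay between 0.37 and 0.57. With 1 array a genotype it has no test.

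Origin licensing and helicase genes lay above the level of all genes as scaled and near it after the surface correction. Their 13 members had a median of 0.26, and of -0.03 after correction, against 0.03 and -0.06 over all genes. At 2-fold 0 of 13 were higher, where 9.13% of all genes were. At 1.5-fold 4 were higher and 1 lower as scaled, where 19.1% and 13.4% of all genes were. Of the subunits of the MCM helicase, which unwinds DNA at the fork, Mcm2 differed by 0.59 (corrected 0.62), Mcm4 by 0.33 (corrected -0.03), Mcm5 by 0.94 (corrected 0.46), Mcm6 by -0.36 (corrected -0.25) and Mcm7 by 0.20 (corrected -0.03). The 4 probes of Mcm3 were all above background on both arrays and ran from -1.28 to 0.77. The brightest Mcm3 probe read 2807 on the MeXis null array and 3993 on the WT array, a difference of -0.58. After the surface correction the Mcm3 probes lay between -0.46 and 0.38, so that a gap of 2.05 became 0.84. Mcm10, which joins the helicase to the polymerase, read 133 on the MeXis null array and 66.7 on the WT array, a difference of 0.93 in an area where the neighbouring spots differed by 0.77, and its corrected difference was 0.16. The loader Cdc6 differed by 0.71 (corrected 0.40).

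Cdt1, the other MCM loader, was the 1 member called lower. Its processed signal was 6896 on the MeXis null array and 13639 on the WT array, a difference of -1.05, or 2.08-fold lower, and -1.11 after the surface correction, on its only probe (chr8:125096893-125096952, mm9). The unprocessed mean signal of the same spot went the other way, with 7995 on the MeXis null array and 6527 on the WT array over local backgrounds of 21 and 17. The background-subtracted ratio of MeXis null over WT was 1.23 before the software's processing and 0.51 after it, and with normexp on the unprocessed signals Cdt1 differed by 0.22. The direction of Cdt1 thus differed before and after that processing. Gmnn (geminin), the inhibitor of Cdt1, read 2920 on the MeXis null array and 2319 on the WT array, a difference of 0.26. The GINS subunits differed by -0.21 for Gins1 and 0.41 for Gins2, which was 0.03 after correction. Cdc45, another part of the active helicase, was above background on the WT array only. It read 20.4 on the MeXis null array and 34.5 on the WT array, with a bound of 1.33-fold lower.

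Of the 4 enzymes that supply nucleotides for DNA synthesis, 1 was past 2-fold, Tk1, where 9.13% of all genes were at least 2-fold higher. Tk1, the thymidine kinase of the salvage pathway, read 389 on the MeXis null array and 180.4 on the WT array, a difference of 1.04 on its brightest probe. All 3 Tk1 probes above background on both arrays lay between 1.04 and 1.76, and between 1.21 and 1.46 after correction. The ribonucleotide reductase subunits Rrm1 and Rrm2, which make deoxyribonucleotides, differed by 0.63 and 0.93 (corrected 0.45 and 0.80). Rrm2 read 663 on the MeXis null array and 331 on the WT array. Tyms, thymidylate synthase, differed by 0.62 on its brightest probe and by 0.18 and -0.28 on the others, which were 0.66 and 0.05 after correction. All 4 of these genes were at least 1.5-fold higher as scaled, where 19.1% of all genes were. Their median was 0.78, and 0.74 after correction, when Rrm1 at 0.45 was within 1.5-fold. Pcna, the sliding clamp, had the highest signal of the members, with 25439 on the MeXis null array and 17421 on the WT array, a difference of 0.48. The polymerase subunits and primase differed by -0.20 for Pola1, 0.67 for Pole and -0.19 for Prim1 (corrected -0.59, 0.42 and -0.10), and Pole was thus also at least 1.5-fold higher as scaled.

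Among the G1 cyclins and Cdk2, 2 of the 4 genes above background were at least 2-fold higher, where 9.13% of all genes were, and Ccnd1 but not Cdk2 kept this after correction. Ccnd1, cyclin D1, which links growth signals to the cell cycle, read 1097 on the MeXis null array and 418 on the WT array, a difference of 1.32 (corrected 1.47), but with normexp it differed by 0.83, under 2-fold. Cdk2, the kinase of the G1 to S transition, read 417 on the MeXis null array and 147 on the WT array, a difference of 1.43, but its neighbouring spots differed by 1.04 and its corrected difference was 0.39. Its partner Ccne1, cyclin E1, differed by 0.57, and by -0.23 after correction. Ccnd2, cyclin D2, differed by -0.23 on its brightest probe and by 0.48 and 0.37 on the others. Ccne2 was above background on neither array. The median of the 4 was 0.95 and became 0.08 after the correction.

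**Figure D3:**
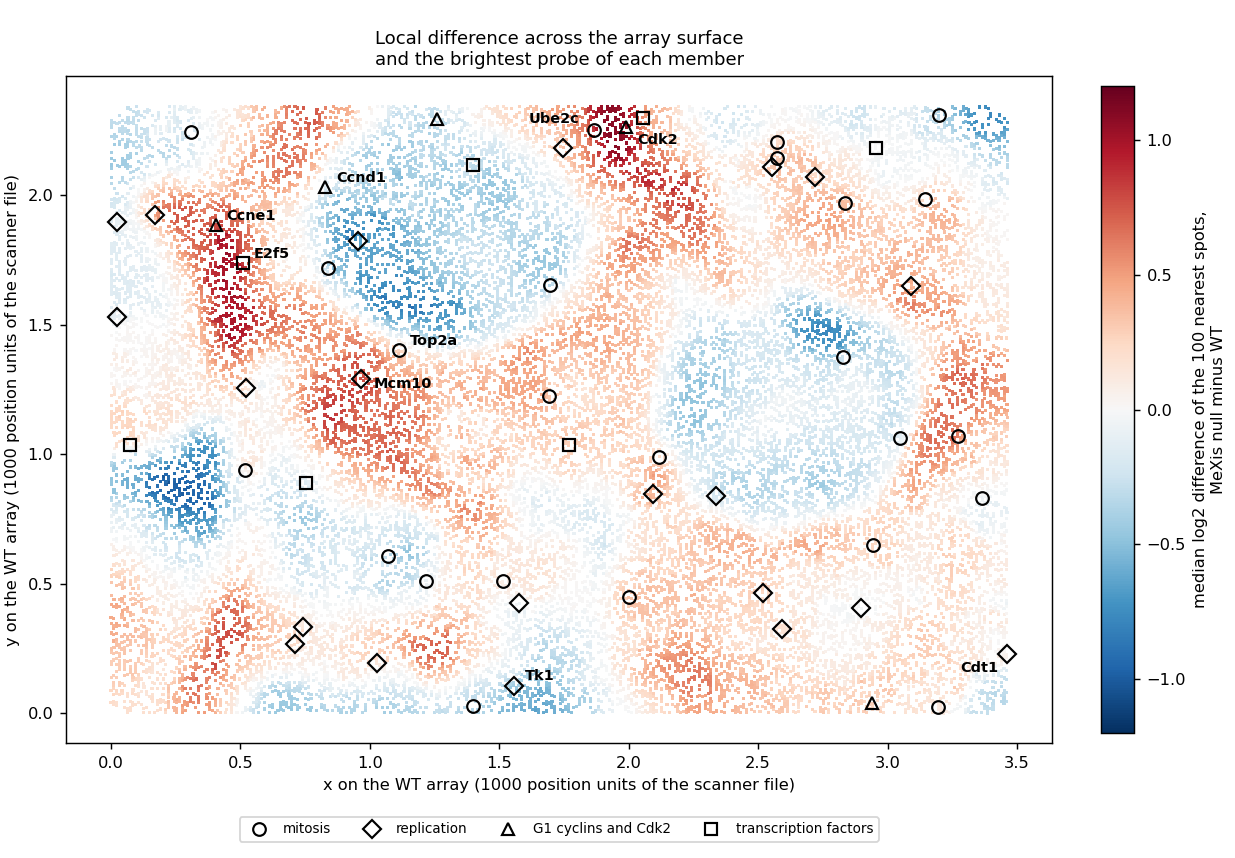
Map of the array surface, with x and y positions of the WT scan in position units of the scanner; colour gives the median log2 difference, MeXis null minus WT, of the 100 nearest spots, and outlined symbols mark the brightest probe of each member. Ube2c, Cdk2, E2f5, Ccne1 and Mcm10 lie where neighbouring spots differed by 0.77 to 1.04, and Tk1 where they differed by -0.42.

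The 6 transcription factor genes above background on both arrays all had differences above 0 on their brightest probe, as scaled and after the surface correction, but not all did with normexp. E2f5, an E2F of the repressor class in resting cells, had the largest difference as scaled among the members above background on both arrays, with 223 on the MeXis null array and 34.5 on the WT array, a difference of 2.62 on its only probe (chr3:14605676-14605735, mm9). Its neighbouring spots differed by 0.85, and the corrected difference was 1.78, or 3.42-fold, which was below that of Bub1 (2.33). E2f8, an atypical E2F that represses E2F targets late in S phase, read 253 on the MeXis null array and 101 on the WT array, a difference of 1.25 (corrected 0.97). The related E2f7 was above background on the WT array only, with 30.2 on the MeXis null array and 22.8 on the WT array, and no fold is given. Among activators, E2f1 read 1003 on the MeXis null array and 512 on the WT array, a difference of 0.90, and 0.33 after correction. E2f2 differed by 0.02. Foxm1, which drives mitotic genes, read 150.0 on the MeXis null array and 95.4 on the WT array, a difference of 0.58 (corrected 0.73). Mybl2 (B-Myb) read 337 on the MeXis null array and 220.2 on the WT array, a difference of 0.54 (corrected 0.86). With normexp Mybl2 stood at -0.14, E2f1 at 0.34 and E2f5 at 1.53, while E2f2, E2f8 and Foxm1 stood at 0.13, 0.97 and 0.45. Of the 7, 2 were at least 2-fold higher, where 9.13% of all genes were, and after correction 1 was, E2f5, where 4.94% were. The list's median was 0.58 (corrected 0.73), or 0.74 without E2f7.

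**Figure D4:**
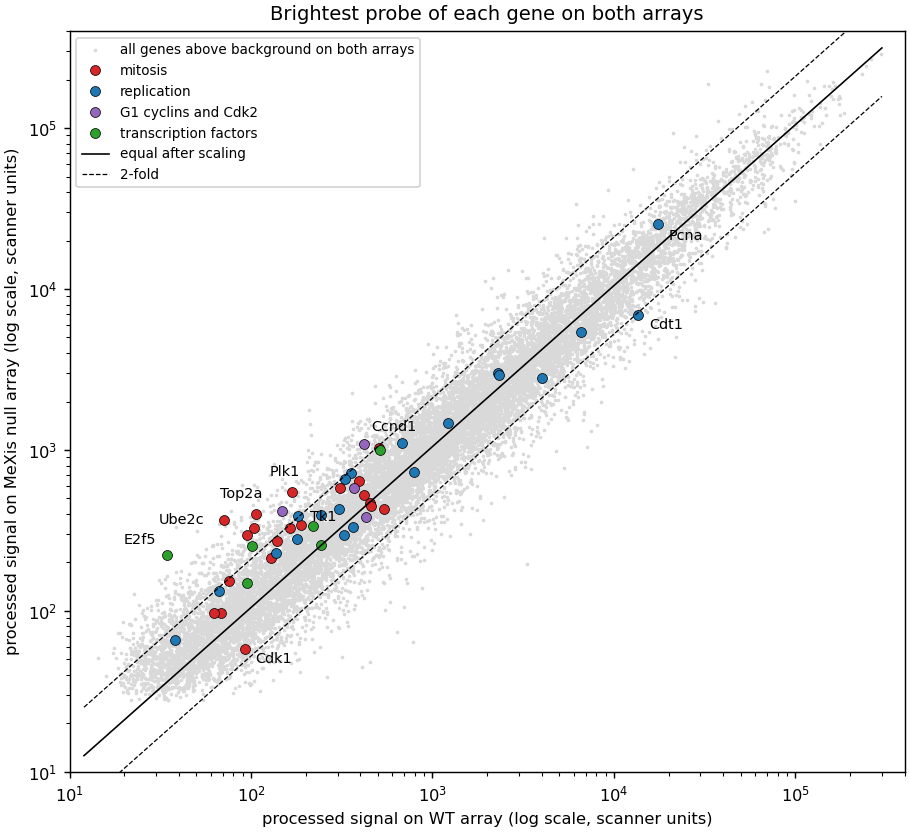
Processed signal of the brightest probe of each gene on the MeXis null array (y) against the WT array (x), both log scales in scanner units, for all genes above background on both arrays (grey) and the members (coloured); the solid line is equality after scaling and the dashed lines 2-fold. Mitosis genes lie at WT signals up to 543 and mostly above the solid line, while the replication genes run up to Pcna at 17421.

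Several members could be read from more than 1 probe. Of 15 members with at least 2 probes above background on both arrays, 9 had probes of the same sign and 6 had probes of opposite signs. The same sign was found for 4 of 5 such mitosis genes and 4 of 8 such replication genes, and after correction for 4 of 5 and 5 of 8. The members of opposite signs as scaled were Mcm3, Mcm6, Pola1, Tyms, Ccnd2 and Mad2l1. The median gap between the highest and the lowest probe of a gene was 0.46, and 0.26 after the surface correction, which narrowed the gap in 9 of the 15. Over single probes above background on both arrays, 20 of 25 mitosis probes and 22 of 32 replication probes had a difference above 0, against 55.2% of all 22733 such probes. After correction, 22 of 25 mitosis probes and 22 of 32 replication probes did, against 48.0% of all.

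The difference between the roles was also looked at by promoter motif. The 13 mitosis genes with a CHR that were above background had a median difference of 0.85 (corrected 1.12), with 5 at least 2-fold higher. The 4 without a CHR had a median of 0.57 (corrected 0.51), with 0 at least 2-fold higher. Over all genes, 9.13% were at least 2-fold higher. With normexp the medians with and without a CHR were 0.64 and 0.46, and Bub1, among the 5, was not called. The 7 replication genes with an E2F site had a median of -0.20 (corrected -0.25), with 0 at least 2-fold higher, and the 9 without one had a median of 0.62 (corrected 0.45), with 1. The median of the 7 genes with an E2F site depends on the processing. With normexp, under which Cdt1 lay above 0, the 7 genes had a median of 0.07 and the 9 one of 0.62. Cdk1, with both motifs, and Cenpa, with a CHR, were below 0. Rrm1, Rrm2, Tyms and Tk1 held no E2F site in the window searched. These splits are descriptions of few genes on a single pair of arrays.

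Further genes of the pathway were read in the same way. Of 40 other mitosis genes on the array, 33 were above background. Their median was 0.39 (corrected 0.36), 7 were past 2-fold upward and 1 downward, where 9.13% and 5.04% of all genes were. After correction 3 were past 2-fold upward and 0 downward, where 4.94% and 3.91% of all genes were. Pbk, a mitotic kinase above background on the MeXis null array only, had a bound of 4.47-fold higher. Of those above background on both arrays, the ends were Spc24 (1.51, corrected 1.22), a subunit of the kinetochore's NDC80 complex, and Plk4 (1.31), the kinase of centriole duplication, which was 0.23 after correction, and, on the lower side, the condensin subunit Ncapg (-1.11) and the spindle protein Tacc3 (-0.75), which were -0.22 and -0.36 after correction. Of 40 other replication genes, 39 were above background. Their median was 0.08 (corrected 0.03), 4 were past 2-fold upward and 0 downward, so that the upward share was near the 9.13% of all genes, and 3 and 0 were after correction. Rpa2, of the single-strand binding complex, was 3.90-fold higher, with 201 on the MeXis null array and 49.1 on the WT array (corrected difference 1.40). Uhrf1, which recognises newly copied methylated DNA, differed by 1.59 (corrected 1.41). The others past 2-fold were the maintenance methyltransferase Dnmt1 (1.13, corrected 0.62) and, above background on the MeXis null array only, Hells (a bound of 2.85-fold higher). Neither was called after correction. The clamp loader subunit Rfc1 (-0.70) and Rpa1 (-0.60) were lowest. The CHR was found in 23 of 32 other mitosis genes and 7 of 33 other replication genes, and the E2F site in 4 and 12 of them. Among 30 cell cycle brakes and regulators the median was 0.03 (corrected 0.09), with 5 at least 2-fold higher and 0 lower, where 9.13% and 5.04% of all genes were. After correction 1 was at least 2-fold higher, E2f4, where 4.94% of all genes were. E2f4, an E2F of resting cells, differed by 1.21 (corrected 1.23) and the Cdk inhibitor Cdkn2a by 1.19 (corrected 0.80). The other 3 were Cdkn2b (1.12, corrected 0.30), Wee1 (1.08, corrected 0.995) and Cdkn1c (1.06, corrected 0.41). The MuvB subunit Lin54 (-0.98, corrected -0.29) and the Cdk inhibitor Cdkn1b (-0.62, corrected -0.36), known as p27, stood at the lower end.

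Markers of other cells of the peritoneal cavity differed between the arrays beside these results. Of 12 fibroblast markers, 11 were above background. Their median was 1.09 (corrected 0.62), and 6 were past 2-fold upward and 1 downward (4 and 1 after correction). For this and the marker lists below, the shares over all genes were 9.13% upward and 5.04% downward, and 4.94% and 3.91% after correction. The summed signal of the fibroblast markers was 14360 on the MeXis null array and 7981 on the WT array. Fbn1 (1.85) and Loxl1 (1.46), matrix genes of fibroblasts, were highest, and Thy1 (0.25) and Col3a1 (-0.13) lowest among those above background on both arrays. Lum, above background on the WT array only, had a bound of 3.40-fold lower. All 8 mesothelial markers were above background and had differences above 0, 4 of them at least 2-fold (3 after correction), with a median of 0.99 (corrected 0.71) and a sum of 2368 on the MeXis null array and 991 on the WT array. Those 4 were Wt1 (1.62), Upk3b (1.45, corrected 0.58), Lrrn4 (1.25) and Upk1b (1.16), while Msln differed by 0.48 and Krt8 by 0.29. Of the B cell markers, 2 of the 8 above background were past 2-fold downward (6 after correction), with a median of -0.85 (corrected -1.16) and a sum of 2523 on the MeXis null array and 3892 on the WT array. Cd79b differed by -1.69, Fcrla by -0.22 (corrected -1.11) and Cd22 by -0.13. Over T and NK cell markers the median was -0.49 (corrected -0.37) with 7 of 10 above background, from Cd2 (-1.26) and Lck (-0.61) to Cd4 (0.11) and Prf1 (0.61). Neutrophil markers had a median of -0.44 (corrected -0.67) with 5 of 10 above background, where Csf3r differed by -0.75, S100a8 by -0.44, Mmp8 by 0.15 and Elane by 0.21. Of 6 erythroid markers 2 were above background, both on the WT array only, and Hba-a1 and Hbb-b1 were above background on neither. Of the macrophage markers, Lyz2 (1.25, corrected 0.52) and Cd14 (0.87) were highest and Mertk (-1.94) and Csf1r (-0.86) lowest, with a list median of 0.43, and of -0.09 after correction. Which cells the cell cycle transcripts came from, and the part of fibroblast and mesothelial RNA in the mitosis result, was not tested.

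**Figure D5:**
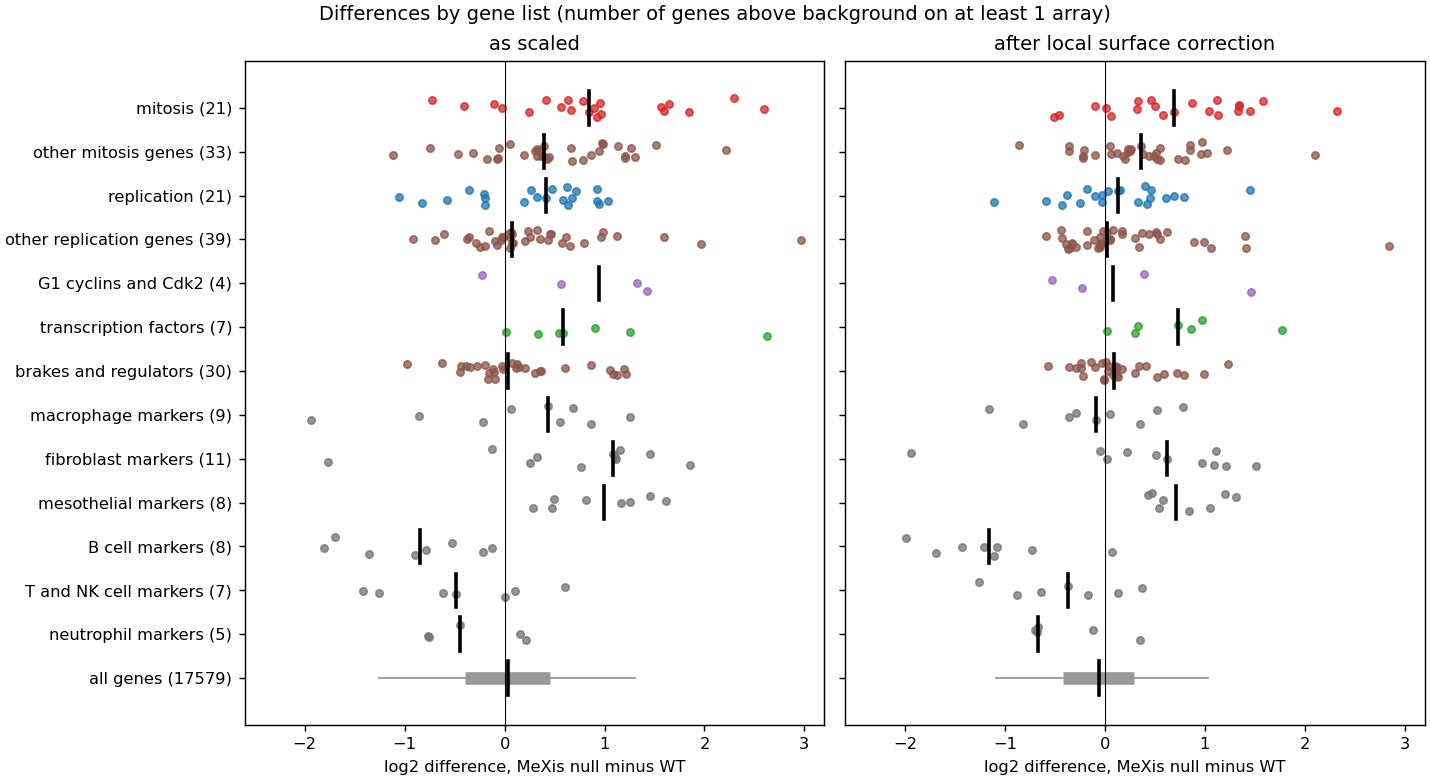
Log2 difference, MeXis null minus WT, of each gene above background on at least 1 array, by list, as scaled (left) and after the local surface correction (right); points are genes, black bars medians, and for all genes the thick and thin grey lines span the middle 50% and 90%. The mitosis median is 0.85 as scaled and 0.69 corrected, the replication median 0.41 and 0.13, and the fibroblast and mesothelial markers also lie above 0 in both panels.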

How the data were processed

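Total RNA pooled per genotype was hybridised to Agilent arrays of 1 colour. Per the file headers, Agilent Feature Extraction 11.5.1.1 turned the scans into 1 linear intensity for each spot, with background subtracted and fitted surface trends removed. The intensity that the authors deposited as a value table was the same as this processed signal on all 62976 features (100%) and had 0 columns without a sample. The headers place probes on mm9.

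Processed signals were put on the log2 scale and centred on the 75th percentile of each array over spots well above background on both arrays (4099 on the MeXis null array and 3904 on the WT array). Control spots and spots marked as outliers (205 and 305) were left out, and 0 spots were saturated. Spots of a probe were averaged, and a gene was its probe of highest mean log2 signal, taken among probes above background where any was. For a gene above background on only 1 array, the fold is its signal there over either the other array's own reading or that array's dimmest signal well above background, whichever is higher. This is termed a bound but is not a strict limit, since some spots brighter than the dimmest marked signal were not marked. The alternatives were normexp with an offset of 50 (limma 3.58.1 in R 4.3.3), other scalings, the local surface correction, the matrix values, other filters, other probe rules and a threshold of 1.5-fold. Python 3.11.15, numpy 2.4.6 and pandas 2.3.3 were used, and the steps were tested on simulated data.

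Every member was named, and of each further list the 2 genes furthest above 0 and the 2 furthest below 0 among those above background on both arrays. Other genes named from these lists were chosen after their values were seen. The members, the lists, the alternatives and the surface correction were chosen with earlier results of these data known. The range of signal that the mitosis genes cover and the unprocessed signal of Cdt1 were looked at after seeing the data. A gene that the naming rule picked is not reported here.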

Additional observations from a re-analysis of the deposited data

How the results depend on the processing

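The medians of the replication and the mitosis genes stayed above 0 under every setting tried, at 0.13 to 0.44 and 0.63 to 0.87; those of the G1 cyclins and Cdk2 lay between 0.08 and 1.32, and of the transcription factors between 0.34 and 0.74. With normexp the medians were 0.18 (replication), 0.63 (mitosis), 0.59 (G1 cyclins and Cdk2) and 0.34 (transcription factors), and 0 members were at least 2-fold lower, since Cdt1 reversed to 0.22. Under the same setting Bub1 differed by 0.63, Cdk2 by 0.67 and Ccnd1 by 0.83, under 2-fold. Ube2c moved from 2.30 to 1.14, Plk1 from 1.64 to 1.18 and Aurkb from 0.95 to 0.47. The local surface correction gave 0.13, 0.69 and 0.08 for the first 3 lists, and the median over a gene's probes gave 0.24 for replication. With no filter on dim probes the G1 list stood at 1.32, where the median of all genes was 0.48. Under that setting the replication median of 0.41 lay below the median of all genes, and the mitosis median of 0.87 above it. Scaling to all probes, to the median or by quantiles left 0 replication genes at least 2-fold higher, against 1 (Tk1, at 1.04). At 1.5-fold, 9 replication and 14 mitosis genes were higher and 2 members lower. Of 527 recomputed member differences, 1 was counted as reversed (Cdt1) and 24 as moved by at least 0.47, the SD between spots of a probe. Of these 24, 13 were with normexp, 9 with the surface correction and 2 with the median over probes. Some differences not counted as reversed also changed sign. With normexp Mybl2 went from 0.54 to -0.14, Mcm4 from 0.33 to -0.37 and Ccnd2 from -0.23 to 0.26. Aurkb went from 0.95 to -0.27 with the median over probes. No paired analysis was possible because each genotype has 1 array. The number of arrays, and for the 31 probes above background on neither array the signal itself, limit the precision.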
